A study of Mus musculus with 16 samples.

Results

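The aminoacyl-tRNA synthetases of mouse quadriceps muscle were compared between animals with a skeletal-muscle-specific deletion of Nampt (KO, 8 libraries) and wild-type animals (WT, 8 libraries). They were chosen by name: every row of the deposited gene count table that carries one of 36 listed synthetase names, out of 45706 genes in the table. Of the 36 genes, 20 encode cytosolic enzymes and 16 encode mitochondrial ones. All 36 passed the low-count filter. Lars2, the mitochondrial leucyl-tRNA synthetase gene, is described apart from the other 15 because its reads may include ribosomal-like RNA. The methionyl-tRNA synthetase gene Mars1 is listed in the table under its older symbol Mars and was matched by gene identifier.

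Each library is polyadenylated RNA of quadriceps, sequenced in paired reads of 52 bp. The KO group carries a skeletal-muscle-specific deletion of Nampt, the enzyme gene of the salvage route to NAD, and the WT group is wild type. The sources used here do not name the promoter that drives the deletion, the sex, age or litter of the animals, or whether each library is a separate animal, so the p-values here reflect sample-to-sample spread, which may be technical. The study's title asks whether loss of NAD in muscle speeds muscle ageing.

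An aminoacyl-tRNA synthetase joins an amino acid to its transfer RNA, the step that fixes which amino acid a codon is read as. Most amino acids have one nuclear gene for the cytosolic enzyme and another for the mitochondrial enzyme, which charges the transfer RNAs that read the messages of the mitochondrial genome. Kars and Gars each supply both compartments, Eprs joins glutamyl- and prolyl-tRNA synthetase in one protein, and Farsa and Farsb encode the two-chain cytosolic phenylalanyl enzyme. When charging fails, the kinase GCN2 senses uncharged transfer RNA and the transcription factor ATF4 is made, and many cytosolic synthetase genes are among the targets of ATF4.

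Library totals of 16065394 to 51881258 estimated counts did not differ between genotypes beyond the spread (exact two-sided permutation p = 0.501, n = 8 each). Nampt spanned 60.4 to 88.7 CPM in the KO libraries and 125.5 to 161.1 CPM in the WT libraries, without overlap, where CPM are counts brought to one depth with TMM-scaled totals. The log2 fold change of Nampt, KO minus WT, was -0.95 (edgeR quasi-likelihood, adjusted p = 9.68e-07). Nampt message thus remained in the KO tissue, at a mean of 73.4 CPM against 141.4 CPM in WT. Which cells held it, and whether it was full-length, cannot be told from gene counts of bulk tissue. All 10 muscle fibre markers were present, led by Myh4, and 0 of them passed the test in edgeR, with 2 lower at an unadjusted p under 0.05. Among markers of other cell types, 3 of 4 pericyte and smooth muscle genes, 1 of 4 endothelial genes and 1 of 2 tested satellite cell genes were higher in KO at an unadjusted p under 0.05, and 0 passed adjustment. Over all tested genes 4.02% were higher and 5.55% lower at that threshold, and with so few genes per list a count of 1 says little. Pericyte and smooth muscle markers summed to 294.7 to 342.4 CPM in KO libraries and 265.1 to 314.2 CPM in WT libraries, and their part in the synthetase values was not tested. In bulk tissue, fewer cells of a type and less RNA per cell cannot be told apart.

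The promoters of some cytosolic synthetases carry the C/EBP-ATF response element that ATF4 binds, and the stretches that hold it are shown because they bear on which members could be read together with ATF4. The element was searched as TGATGNAA on both strands, so that the reverse strand reads TTNCATCA, in windows from 250 bases before to 50 bases after the transcription start (RefSeq, GRCm38.p6). Of the 36 genes, 27 were found in the promoter table, with 28 windows. The genes Cars, Hars, Lars, Nars, Rars, Vars, Wars, Hars2 and Pars2 were not. The element was in the window of 5 genes, Aars, Gars, Iars, Tars and Yars, all cytosolic. That is 5 of 13 windows of cytosolic genes and 0 of 15 windows of mitochondrial genes, against 3.97% of all 32851 windows of the table. The following stretches are written 5′ to 3′ on the gene's own strand, with the element in capitals. Asns, Chac1 and Trib3, well known ATF4 targets outside the synthetase family, are shown for comparison. They are 3 of the 6 genes with the element among the 20 of the list of uncharged-tRNA sensing and ATF4 targets that have a window, and the other 14 did not hold it.
Aars (chr8:111033841-111033868, plus strand): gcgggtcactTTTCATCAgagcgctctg
Gars (chr6:55037961-55037988, plus strand): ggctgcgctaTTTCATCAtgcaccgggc
Iars (chr13:49682127-49682154, plus strand): actgtcagtaTTGCATCAcctccagacg
Tars (chr15:11399656-11399683, minus strand): aggagtcccgTTGCATCAgctggttagc
Yars (chr4:129189896-129189923, plus strand): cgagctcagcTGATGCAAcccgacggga
Asns (chr6:7693215-7693242, minus strand): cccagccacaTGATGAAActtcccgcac
Chac1 (chr2:119351039-119351066, plus strand): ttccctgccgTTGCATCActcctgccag
Trib3 (chr2:152344029-152344056, minus strand): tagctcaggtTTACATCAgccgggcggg

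The Aars element shown starts 10 bases after the annotated start. Those of Gars and Tars start 30 and 15 bases before it, and those of Iars and Yars start 8 and 4 bases after it. The core TTGCATCA, or TGATGCAA on the other strand, is shared by the stretches shown of Iars, Tars, Yars and Chac1. A match of letters is a description and shows no binding, and a window without a match says only that these letters are not in it.

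In the KO tissue, where Nampt counts were reduced but not absent, the synthetase messages were found close to their wild-type levels. Of the 35 genes other than Lars2, 0 passed the test between KO and WT (edgeR quasi-likelihood, adjusted p under 0.05). Over all 13792 tested genes 0.0435% passed, which is 6 genes. DESeq2 and limma-voom also called 0 of the 35, against 1.04% and 0.0363% of the genes they tested. At an unadjusted p under 0.05, 1 of the 35 was lower and 0 were higher, against 5.55% and 4.02% of all tested genes. The median log2 fold change of the 35 was -0.00, with 17 above 0 and 18 below, and 51.8% of all tested genes were above 0. For all 35 the 95% interval of the difference stayed within a 1.25-fold change up or down, as it did for 62.6% of all tested genes. The CPM ranges of KO and WT overlapped for all 35, and 0.123% of all tested genes had ranges that did not overlap.

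**Figure D1:**
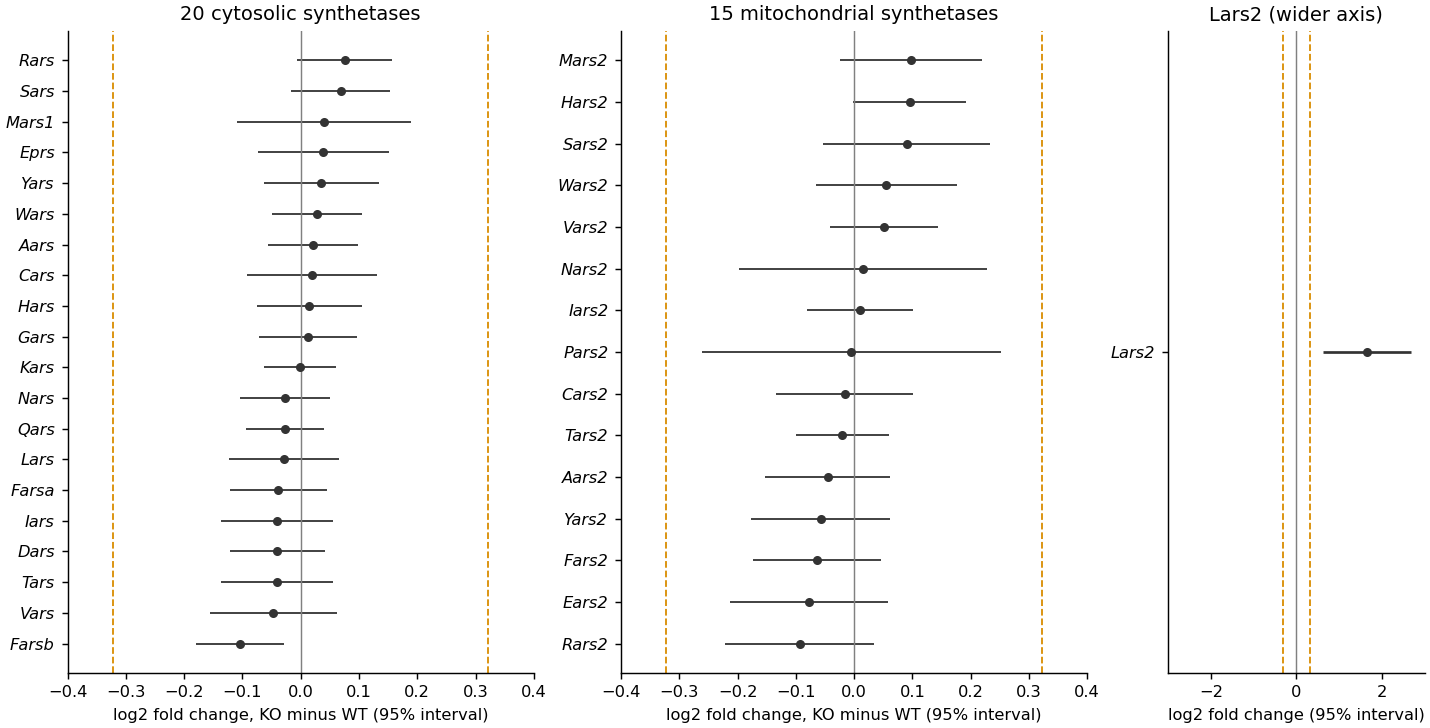
Log2 fold change, KO minus WT, of each synthetase gene (points) with its 95% interval (bars), for 20 cytosolic genes, 15 mitochondrial genes and Lars2 on a wider axis; dashed lines mark a 1.25-fold change. All intervals of the left and middle panels lie between the dashed lines, Farsb is the one gene of those panels whose interval leaves out 0, and Lars2 sits at 1.65 with an interval above 0.

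Among the cytosolic genes 10 had a log2 fold change above 0 and 10 below, with a median of 0.01. Their summed level averaged 1353 ± 47.9 CPM over the KO libraries against 1347 ± 51.9 CPM over the WT libraries (SD, n = 8 each). The sums ran from 1287 to 1419.8 CPM in KO and from 1281 to 1422 CPM in WT, so the groups covered nearly the same range. Single genes moved by no more than -0.10 and 0.08 on the log2 scale, and the widest interval bounds were -0.18 and 0.19.

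Farsb encodes the beta chain of the cytosolic phenylalanyl-tRNA synthetase (chromosome 1, 78417975 to 78488897, minus strand, GRCm38). KO libraries spanned 35 to 39.8 CPM with a median of 37.5, and WT libraries 37.4 to 43.3 CPM with a median of 40.4. Every KO library was below the WT mean, yet the ranges overlapped. The log2 fold change of Farsb was -0.10 (SE 0.036, edgeR unadjusted p = 0.0096, adjusted p = 0.333). The KO level was thus 93.1% of the WT level, with 95% bounds of 88.3% and 98%. It was the lowest fold change and the lowest p of the 35 genes, and it did not pass. Farsa, the alpha chain of the same enzyme, had a log2 fold change of -0.04 (95% interval -0.12 to 0.04). In CPM per kilobase, the ratio of Farsa to Farsb was 0.565 ± 0.018 for KO and 0.540 ± 0.017 for WT (SD, n = 8 each), and it spanned 0.511 to 0.591 over the 16 libraries.

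Rars, the arginyl-tRNA synthetase gene, averaged 42.5 ± 1.7 CPM in KO libraries against 40.3 ± 2.21 CPM in WT libraries (SD, n = 8 each), the highest cytosolic fold change (log2 0.08, SE 0.039). It was above the WT mean in 7 of 8 KO libraries, and edgeR gave an unadjusted p of 0.0685 and an adjusted p of 0.563. Sars, for serine, was next, at 81.2 ± 3.89 CPM in KO against 77.5 ± 4.18 CPM in WT (log2 fold change 0.07, edgeR adjusted p = 0.623). Kars, for lysine, was among the steadiest: its KO libraries ran from 84.9 to 92.8 CPM and its WT libraries from 84.7 to 92.1 CPM, and its 95% interval of the log2 fold change was -0.06 to 0.06. Eprs had the highest level of the family, Lars2 apart, from 252 to 319 CPM in KO and from 249.98 to 304 CPM in WT, and a log2 fold change of 0.04 (95% interval -0.07 to 0.15).

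The cytosolic enzymes can be read by structure and by partner. Class I enzymes (9 genes) build the active site on a Rossmann fold and class II enzymes (10 genes) on an antiparallel sheet. In class I 5 genes were above 0 and 4 below, with a median log2 fold change of 0.02, and in class II 4 were above and 6 below, with a median of -0.01. The bifunctional Eprs was left out of both classes. The multisynthetase complex gathers several synthetases on 3 scaffold proteins. Of its 8 enzyme genes, Eprs, Iars, Lars, Mars1, Qars, Rars, Kars and Dars, 3 were above 0 and 5 below, 0 passed and 0 reached an unadjusted p under 0.05 in edgeR, and the median log2 fold change was -0.01. The scaffold genes Aimp1 and Aimp2 averaged 52.4 and 90.4 CPM in KO libraries and 53.3 and 101.2 CPM in WT libraries, with log2 fold changes of -0.02 (SE 0.030) and -0.16 (SE 0.104). Aimp2 varied from 75.5 to 134.0 CPM over the libraries, so its interval was wider than that of any complex enzyme, and the third scaffold, Eef1e1, had a log2 fold change of 0.08 (SE 0.101).

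The mitochondrial genes gave the same picture at lower levels and with wider errors. Among the 15, 7 had a log2 fold change above 0 and 8 below, with a median of -0.01. Their summed level averaged 227.2 ± 4.56 CPM over the KO libraries against 227.3 ± 8.88 CPM over the WT libraries (SD, n = 8 each). At an unadjusted p under 0.05 edgeR gave 0 of the 15. The intervals reached from -0.26 to 0.25, and both of these bounds belong to Pars2, the prolyl-tRNA synthetase gene, which had the lowest counts of the family at 3.14 ± 0.52 CPM in KO against 3.15 ± 0.571 CPM in WT.

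Hars2 (histidine) came nearest to the threshold among the mitochondrial genes. KO libraries spanned 12.8 to 14.8 CPM with a median of 13.6, and WT libraries 11.7 to 13.9 CPM with a median of 12.7. Hars2 was above the WT mean in 7 of 8 KO libraries, and 2 KO libraries were above every WT library. The log2 fold change of Hars2 was 0.10 (SE 0.046, edgeR unadjusted p = 0.0546, adjusted p = 0.536). Hars and Hars2 lie on opposite strands of chromosome 18 with overlapping 5′ ends, their annotated starts 197 bp apart (GENCODE vM21), and Hars had a log2 fold change of 0.02 (SE 0.043). The sources used here do not say whether reads were counted by strand, so reads from the overlap are uncertain for both.

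Mars2 (methionine) was at 7.58 ± 0.495 CPM in KO against 7.07 ± 0.516 CPM in WT (log2 fold change 0.10, edgeR adjusted p = 0.625), and Sars2 (serine) was at 11.3 ± 0.967 against 10.6 ± 1.08 CPM (0.09, adjusted p = 0.724). On the other side, Rars2 (arginine) was at 10.3 ± 0.76 CPM in KO against 11.0 ± 0.987 CPM in WT (log2 fold change -0.09, edgeR adjusted p = 0.675), while its cytosolic counterpart Rars leaned the other way. Ears2, which charges glutamate and with it begins the route to mitochondrial glutaminyl-tRNA, had a log2 fold change of -0.08 (SE 0.064). Iars2 (isoleucine), with the highest mitochondrial level after Lars2, was at 66.8 ± 3.44 CPM in KO against 66.4 ± 4.04 CPM in WT.

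**Figure D2:**
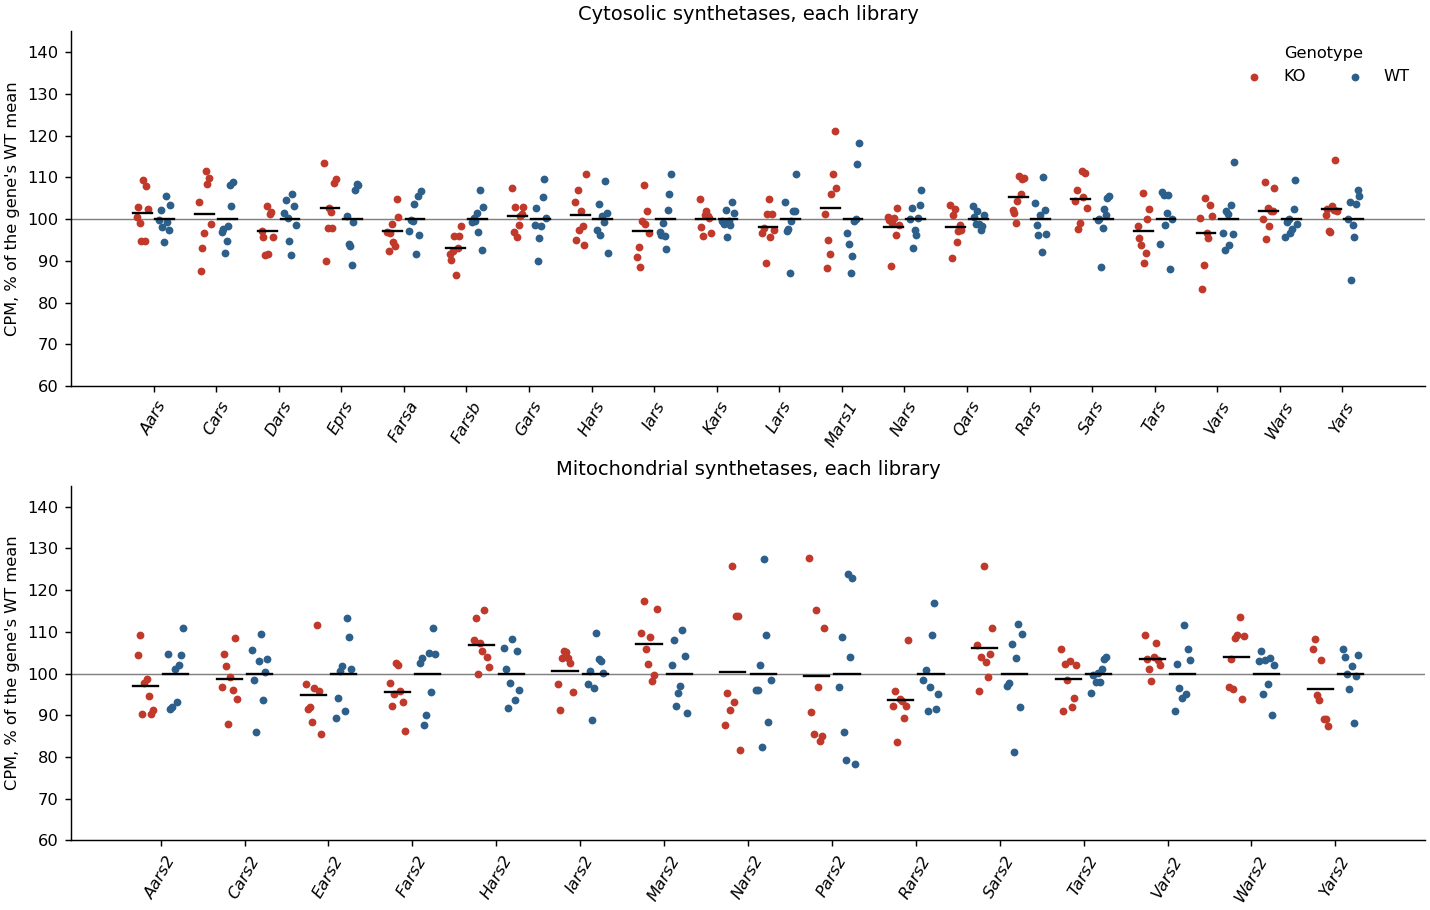
CPM of each library as a percentage of the gene's WT mean (points, 8 KO and 8 WT) for 20 cytosolic and 15 mitochondrial genes, with group means as black lines. KO and WT points overlap for each gene, Farsb has all 8 KO points below 100, and Pars2 and Nars2 are the most scattered.

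The family varied little from library to library. The median coefficient of variation was 4.71% in KO and 5.44% in WT for the cytosolic genes, and 7.10% and 7.30% for the mitochondrial genes, against 11.1% and 11.4% over all tested genes. The highest library exceeded the lowest of the 16 by 1.21-fold for the median cytosolic gene, by 1.27-fold for the median mitochondrial gene and by 1.52-fold for the median of all tested genes with no library at 0. Qars in WT was the steadiest member of any group, with a coefficient of variation of 1.96%, and Pars2 in WT, Lars2 apart, the most variable at 18.1%. WT library 8 held the highest value of 5 cytosolic genes, and the lowest values gathered in KO library 3, WT library 3 and WT library 4, each with 4 cytosolic genes.

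Levels between genes were compared per kilobase of exon length (GENCODE vM21). Eprs stood first at 58.0 ± 4.25 CPM per kilobase (SD, n = 16), then Kars at 39.4 ± 1.05 and Nars, for asparagine, at 34.5 ± 1.5, and the ranges of these 3 over the libraries did not touch each other or the next gene. Gars, Dars, Sars, Iars and Aars followed between 24.0 and 20 CPM per kilobase. Of the 34 pairs of neighbours in the order, 26 had overlapping ranges, so most of the order is not resolved beyond the spread. The lowest cytosolic gene, Farsa at 9.81, was level with the highest mitochondrial gene, Iars2 at 9.99. The other 19 cytosolic genes were above every mitochondrial gene but Lars2, which was left out of this order. At the foot were Wars2 at 1.31, Nars2 at 1.11, Pars2 at 1.03 and Mars2 at 0.648 CPM per kilobase.

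The median cytosolic gene was at 18.9 CPM per kilobase and the median mitochondrial gene at 3.97. Their ratio, taken in each library, was 4.56 ± 0.375 for KO and 4.74 ± 0.219 for WT (SD, n = 8 each). The length used matters for single genes, because some mitochondrial synthetase messages have long untranslated ends: the exon length of Mars2 is 11294 bp and its coding length 1758 bp. Per kilobase of coding length, Mars2 stood at 4.17 rather than 0.648, Pars2 was the lowest at 2.05, and the ratio of the medians was 3.77. Iars2, at 21.9 on that scale, was 13th of the 35 and above 8 cytosolic genes. Eprs and Nars led on that scale too, at 62.7 and 60.2.

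**Figure D3:**
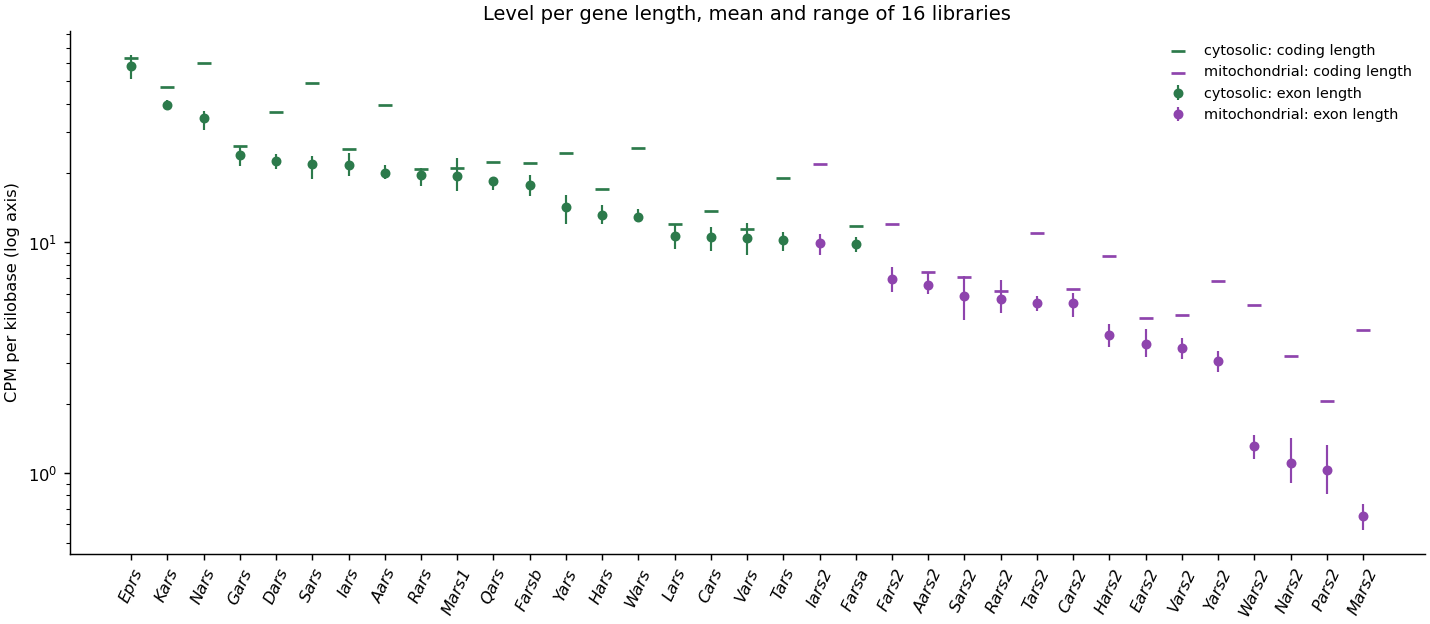
Level of each gene in CPM per kilobase on a log axis, as the mean (points) and range (bars) of 16 libraries by exon length, with short dashes for the mean by coding length. Cytosolic genes fill the left, mitochondrial genes the right, Iars2 and Farsa meet near 10 and Mars2 is lowest by exon length.

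Each amino acid with a gene in both compartments had more cytosolic than mitochondrial message per kilobase of exon, Lars2 apart. With the alpha chain Farsa taken for the cytosolic phenylalanyl enzyme, the smallest gap was for phenylalanine. Farsa exceeded Fars2 by 1.44 ± 0.116-fold in KO and 1.42 ± 0.159-fold in WT. Per kilobase of coding length that pair turned round, with Farsa at 11.7 and Fars2 at 12.0. The beta chain Farsb was above Fars2 on both scales, at 17.8 against 6.91 by exon and 22.1 against 12.0 by coding length. For phenylalanine the small gap and its turn thus hold for Farsa only. Threonine (Tars over Tars2, 1.86 ± 0.143 and 1.88 ± 0.139) and cysteine (Cars over Cars2, 1.96 ± 0.200 and 1.91 ± 0.170) followed by exon length. By coding length isoleucine was closer, with Iars at 25.4 and Iars2 at 21.9, against 18.9 for Tars and 11.0 for Tars2. The widest gap was for proline, where Eprs exceeded Pars2 by 58.0 ± 7.63-fold in KO and 56.7 ± 10.2-fold in WT. Arginine had the ratio that differed most between the groups relative to its spread, with Rars over Rars2 at 3.66 ± 0.216 in KO and 3.26 ± 0.274 in WT. That pair was singled out after its values were seen, and its ratio was not tested.

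Many of the cytosolic members varied together from library to library. Pearson's r was taken over the 16 libraries between deviations of log2(CPM + 0.5) from the genotype mean, and is given as a description, since all pairs share the same libraries and depth. Over the 190 pairs of cytosolic genes the median r was 0.274, and 20% of pairs exceeded 0.5. Over all pairs of tested genes the median was -0.00 and 4.84% exceeded 0.5. The 105 pairs of mitochondrial genes had a median of 0.09 with 5.71% above 0.5. Most mitochondrial genes had lower counts, which brings more counting noise and pulls r toward 0. The part of level in the contrast with the cytosolic genes was not tested. For 13 cytosolic synthetases known as ATF4 targets the median was 0.391, and 39.7% of 78 pairs exceeded 0.5. The closest pairs were Sars with Yars (0.850), Cars with Mars1 (0.833), Nars with Yars (0.766) and the chains Farsa and Farsb (0.753).

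The deviations were then set beside those of Atf4, a comparison added after the values were seen. Atf4 spanned 93.2 to 126 CPM in KO libraries and 100.02 to 138 CPM in WT libraries, with a log2 fold change of -0.04 (SE 0.073). The 2 highest libraries were WT 8 at 138 and WT 7 at 128 CPM, then KO 7 at 126 CPM. The RIN, a score of RNA integrity, was 8.2 in WT 8, the lowest of all, 8.6 in WT 7 and 8.4 in KO 7. KO 8, also at 8.4, had 106 CPM of Atf4. The part of RNA integrity in these relations was not tested. Mars1 was highest in KO 7, WT 8 and WT 7 as well, at 68.7, 67.0 and 64.2 CPM, and lowest in WT 3 at 49.4 CPM. Its r with Atf4 was 0.827 (permutation p = 0.00022 within genotype, n = 16, adjusted over all genes 0.018), with Spearman's rho of ranks within genotype at 0.750 (permutation p = 0.00206). Sars had an r of 0.745 (permutation p = 0.00153, n = 16, adjusted over all genes 0.0439) and a rho of 0.810 (permutation p = 0.00065).

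Mars1 and Sars were the 2 of 20 cytosolic genes with a positive r that passed, and 0 of 15 mitochondrial genes did, against 1.54% of the 13791 other tested genes. These shares are not matched for level, and most mitochondrial genes had lower counts. At an unadjusted permutation p under 0.05, 8 cytosolic genes and 1 mitochondrial gene, Cars2, had a positive r, against 9.83% of the other tested genes. Both relations pointed the same way in each genotype, with r for Mars1 at 0.724 in KO and 0.921 in WT and for Sars at 0.818 and 0.697. Neither passed without the libraries farthest from the median of Atf4, WT 8 and WT 7, where r was 0.695 (adjusted permutation p = 0.203) for Mars1 and 0.686 (0.167) for Sars. Neither passed without KO libraries 1, 3, 5 and 8 either, where r was 0.861 (adjusted permutation p = 0.075) and 0.766 (0.139), so both calls were lost with fewer libraries while r stayed above 0.5. An r above 0.5 was seen for 9 of 20 cytosolic genes and 1 of 15 mitochondrial genes, against 10.6% of the other tested genes. The 9 were Mars1, Sars, Yars, Nars, Cars, Eprs, Lars, Iars and Kars. Without WT 8 and WT 7, 5 cytosolic genes were above 0.5. Of the 5 genes with the ATF4 element in the window printed above, Yars had an r of 0.653, Iars 0.522, Aars 0.475, Gars 0.444 and Tars -0.502. The r of Tars, alone of the 5, was below 0, and it did not pass (adjusted permutation p = 0.271). Among cytosolic genes with a window but no element, Mars1 (0.827), Sars (0.745), Eprs (0.598) and Kars (0.502) were above 0.5. The rest of these, Farsa (0.128), Dars (0.00164), Qars (-0.0479) and Farsb (-0.256), were not. Whether the element goes with r was not tested. The summed 5 small RNAs without a poly(A) tail, described with Lars2, had an r of 0.276 with Atf4.

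**Figure D4:**
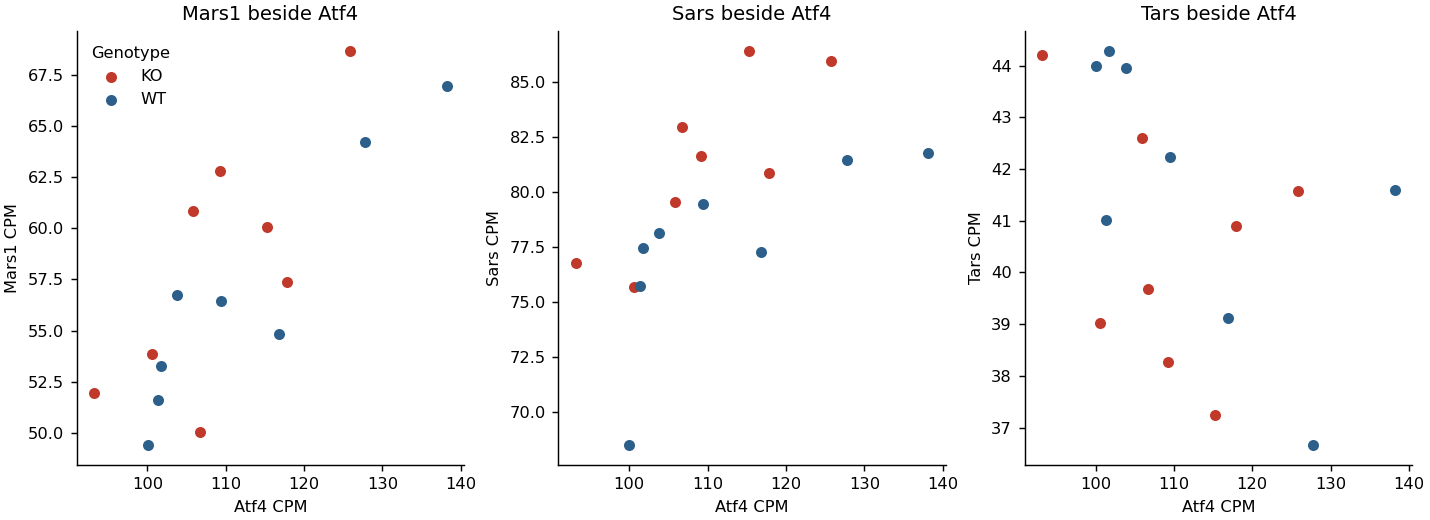
CPM of Mars1, Sars and Tars against CPM of Atf4 in 8 KO and 8 WT libraries (points). Mars1 and Sars are higher where Atf4 is higher in both genotypes, Tars is not, and KO and WT points overlap.

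Between genotypes the ATF4-linked genes did not separate. The 13 ATF4-responsive synthetases had a median log2 fold change of 0.02, with 8 above 0 and 5 below, 0 passing and 0 at an unadjusted p under 0.05 (edgeR). The 5 genes with the element had log2 fold changes of 0.02 (Aars), 0.01 (Gars), -0.04 (Iars), -0.04 (Tars) and 0.04 (Yars). Of 24 genes for sensing of uncharged transfer RNA and other ATF4 targets, 21 were tested, 0 passed and 0 reached an unadjusted p under 0.05 in edgeR. Atf4 and Gcn1l1, a partner of GCN2, had the highest CPM of that list, and Gcn1l1 was at 68.8 CPM in KO against 66.2 CPM in WT (log2 fold change 0.06, SE 0.052). Chac1, a glutathione-cleaving enzyme whose promoter stretch is printed above, ranged from 14.6 to 84.9 CPM in KO and from 8.94 to 77.2 CPM in WT (log2 fold change 0.36, SE 0.378). Asns and Trib3, named for the same reason, had log2 fold changes of 0.01 (SE 0.180) and 0.27 (SE 0.211).

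The steps around charging were described by 7 lists with 80 tested genes, the ATF4 list included, and 0 of the 80 passed in edgeR, DESeq2 or limma-voom. At an unadjusted p under 0.05 edgeR gave 2 higher and 0 lower, against 4.02% and 5.55% of all tested genes. Of the 80, 39 were above 0 and 41 below. Among synthetase-related genes outside the naming rule, Tarsl2, a second threonyl enzyme, was at 78.4 CPM in KO against 80.8 CPM in WT (log2 fold change -0.04), and Pstk, which acts in selenocysteine formation, at 13.7 and 13.8 CPM (-0.01). In editing and proofreading, 0 of 7 passed or reached an unadjusted p under 0.05, and Aarsd1, an alanyl-tRNA editing protein, had a log2 fold change of 0.01 (SE 0.039). Among 8 tested genes for the use of charged mitochondrial transfer RNA, led by the elongation factor Tufm at 89.6 CPM in KO against 93.7 CPM in WT (-0.06, SE 0.042) and the amidotransferase subunit Gatc (-0.03, SE 0.041), 0 passed or reached an unadjusted p under 0.05.

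Transfer RNA is made by RNA polymerase III and trimmed before it can be charged. Of 18 tested genes for maturation and export, 0 passed or reached an unadjusted p under 0.05 in edgeR. Ssb, the La protein, and Rtcb, the tRNA ligase, had the highest CPM, with log2 fold changes of 0.06 (SE 0.036) and 0.03 (SE 0.046). Of 19 genes for polymerase III transcription, 0 passed, and 2 were higher at an unadjusted p under 0.05. These were the subunit genes Polr3f and Polr3g, at log2 fold changes of 0.11 (edgeR adjusted p = 0.520) and 0.21 (adjusted p = 0.350), named after their values were seen. The most abundant of the list, Gtf3c1 of the factor TFIIIC and the repressor Maf1, had log2 fold changes of 0.06 (SE 0.042) and -0.07 (SE 0.057). Transfer RNAs themselves were not analysed here.

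Lars2 (chromosome 9, 123366927 to 123462666, plus strand, GRCm38) stood apart from every other member. KO libraries spanned 203 to 2226 CPM with a median of 1125, and WT libraries 204 to 729.9 CPM, the latter in WT library 8, with a median of 293. KO libraries 1, 3, 5 and 8 were at 2070.5, 2226, 1853 and 1830.5 CPM, above every other library. The other 4 KO libraries, at 202.9 to 419 CPM, were below the highest WT library, and KO 6 was just below the lowest WT library, at 203.6 CPM, so the KO group fell into 2 separate sets. The log2 fold change of Lars2 was 1.65 (SE 0.488, 95% interval 0.63 to 2.68, edgeR unadjusted p = 0.0033, adjusted p = 0.268), and it did not pass. DESeq2 called it (1.65, adjusted p = 0.0485) and limma-voom did not (1.195, adjusted p = 0.454). An exact two-sided permutation test of its log2 CPM gave p = 0.0552. Over all alternatives run, the adjusted p of Lars2 ranged from 0.0485 to 0.857. Without KO libraries 1, 3, 5 and 8 the log2 fold change was -0.24 (edgeR adjusted p = 0.857). Those 4 are the libraries with the most Lars2, so leaving them out had to lower the difference, and nothing is concluded from that fit.

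Ribosomal-like genes moved with Lars2 in the same libraries. Gm42418, listed in the table as Yam1, was at 22325 to 24915 CPM in KO libraries 1, 3, 5 and 8, at 1590.0 to 4365 CPM in the other KO libraries and at 1344 to 10041 CPM in WT. Gm26917 was at 134 to 206 CPM in those 4 libraries, at 14.5 to 32.1 CPM in the other KO libraries and at 14.2 to 71.2 CPM in WT. Rn18s-rs5, an 18S-related gene, and the mitochondrial ribosomal RNAs mt-Rnr1 and mt-Rnr2 were likewise highest there, at 539 to 764, 1931 to 2883 and 3687 to 5202 CPM. AY036118, the second gene listed as Yam1, was at 4.84 CPM in KO against 1.52 CPM in WT, and Gm15564, at 0.259 and 0.110 CPM, was below the low-count filter. All 6 tested genes of that list were higher in KO at an unadjusted edgeR p under 0.05, against 4.02% of all tested genes. Of the 6, 0 passed, with log2 fold changes from 0.59 to 1.74. Most were highest in the same KO libraries, so they are not separate results. The ribosomal-like list as a whole summed to 3645 to 33747 CPM in KO libraries and 4312 to 13873 CPM in WT libraries.

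The proportion of Lars2 to Gm26917 varied less than Lars2. Lars2 itself ranged 11.0-fold over the 16 libraries, while Lars2 over Gm26917 ran from 8.90 to 15.6, a 1.76-fold range, with the lowest values in KO 8 (8.90) and WT 8 (10.3). As a percentage of Gm42418 (Yam1), Lars2 ran from 7.27% to 15.2%, a 2.08-fold range, at 7.62% to 9.97% in KO libraries 1, 3, 5 and 8 and 9.25% to 12.8% in the other KO libraries. The ratio to Gm26917 was 13.1 ± 1.95 for KO and 13.9 ± 1.67 for WT (SD, n = 8 each), and it did not differ between them beyond the spread (exact two-sided permutation p = 0.401). Since Gm26917 was high in the same KO libraries as Lars2, the ratio takes out that split, and nothing on Lars2 is concluded from its p. Small RNAs without a poly(A) tail, which a poly(A) selection should leave behind, were high in the same libraries. A set of 5, chosen after the data were seen, Rn7sk, Rmrp, Rpph1, Rn7s1 and Rn7s2, summed to 287 to 509 CPM in KO libraries 1, 3, 5 and 8, to 20.2 to 70.6 CPM in the other KO libraries and to 15.5 to 218.5 CPM in WT, where library 8 was highest as it was for Lars2. Of the 12 tested genes on the list of RNAs without a poly(A) tail, 4 were higher in KO at an unadjusted edgeR p under 0.05. Over all tested genes that share was 4.02%. The 4 were Rn7sk, Rmrp, Rn7s1 and Rn7s2 (log2 fold changes 1.65 to 2.05), all from the set of 5, and 0 passed in edgeR. The other 8, all histone genes, ran from -0.35 (Hist1h1d) to 0.26 (Hist1h4h) with 0 at an unadjusted p under 0.05, and the median of the list was 0.025. With the log2 of the sum of 5 as a covariate, the log2 fold change of Lars2 was 0.19 (edgeR adjusted p = 0.740). Because the sum was highest in the libraries with the most Lars2, this covariate had to lower the difference, and nothing is concluded from that fit. Per kilobase of exon, Lars2 exceeded its cytosolic counterpart Lars in every library, with Lars at 0.0169 to 0.215 of Lars2, the one amino acid where the mitochondrial gene was the higher.

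**Figure D5:**
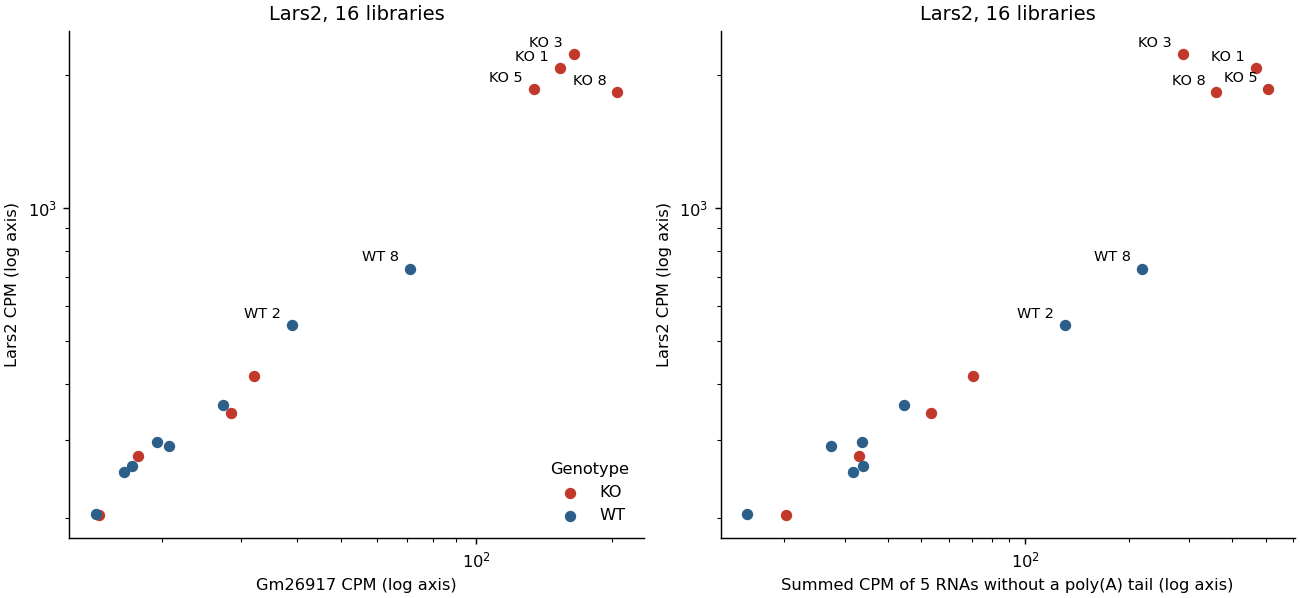
Lars2 CPM against Gm26917 CPM (left) and against the summed CPM of 5 RNAs without a poly(A) tail (right), log axes, in 8 KO and 8 WT libraries. KO 1, 3, 5 and 8 lie at the top right in both panels, followed by WT 8 and WT 2, and the other libraries run along the same line.

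Among the annotated transcripts compared, only those of Gm15564 gave alignments to Lars2. Aligned to the 9 Lars2 transcripts of GENCODE vM21, the transcripts of Gm26917, Gm42418, AY036118, the gene of Rn18s-rs5, mt-Rnr1 and mt-Rnr2 gave 0 alignments at an E value of 1e-05 or less. Gm15564, an antisense gene on chromosome 16, shared 72 bases at 98.6% identity, which is longer than a read of 52 bp. Whether reads were shared between Gm15564 and Lars2 was not tested. The sequences of nuclear 28S ribosomal RNA and of the precursor were not used here.

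For most other members the level in those libraries overlapped that of the other KO libraries. The exceptions were 3 of the 35, named after their values were seen, against 3.71% of all tested genes. Hars was higher in KO libraries 1, 3, 5 and 8, at 26.5 to 28.8 CPM against 24.4 to 25.6 CPM in the other KO libraries. Tars2, for mitochondrial threonine, was also higher there, at 24.5 to 25.4 against 21.9 to 23.6 CPM. Nars2, for mitochondrial asparagine, was lower, at 3.76 to 4.29 against 4.39 to 5.78 CPM. These values are a description of single libraries and were not tested. Without KO libraries 1, 3, 5 and 8, 0 of the 35 passed in edgeR, where 2 of all tested genes did. With the RNAs without a poly(A) tail as a covariate 0 of the 35 passed, where again 2 of all tested genes did. At an unadjusted p under 0.05 these fits gave 1 and 3 of the 35. The share of all tested genes at that threshold in these fits is not given here, so nothing is read from those counts. The summed cytosolic CPM was 1388, 1287, 1375 and 1383 in KO libraries 1, 3, 5 and 8, against 1287, 1346, 1336 and 1419.8 in the other KO libraries.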

How the data were processed

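RNA of 8 KO and 8 WT quadriceps samples was measured. The authors deposited estimated counts for each gene, not scaled to depth, which per the submitters' processing notes were made with bcl2fastq 4.0.3, STAR and Salmon on GRCm38 (versions of STAR and Salmon, annotation and strand setting: not given in the sources used here). Of the estimated counts 11.1% were not whole and all were rounded. Of the table's columns 0 were left unmatched.

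Genotypes came from the labels. The main test was edgeR 4.0.16 (R 4.3.3) quasi-likelihood with TMM, edgeR's default filter on low counts and no covariate, over 13792 genes, with Benjamini-Hochberg adjustment over all of them and calls at 0.05. Each standard error is the fold change over the root of F, and intervals are at 95%. Alternatives were DESeq2 1.42.0, limma 3.58.1, other size factors, no filter, a RIN covariate, a replicate block and leaving out each library. Correlations with Atf4 used 100000 permutations within genotype. The scripts were tested on simulated data. GENCODE vM21 gave positions and lengths, and blastn 2.17.0 compared transcripts. No 2 libraries of a genotype agreed within sampling noise.

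Named were all members, Nampt, ribosomal-like genes and, of each related list, called genes or else up to 2 with the highest CPM. Members and lists were chosen with earlier results of these data known. Of the listed related genes, 80 of 85 were tested. Of the promoter stretches of member genes that hold the searched element, 1 is not reported here.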

Additional observations from a re-analysis of the deposited data

Results flagged for a closer look

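In 4 of 74 groups of 8 libraries, 1 per gene and genotype, the highest or lowest library stood far from the rest, with a gap to its neighbour above Dixon's 95% critical value. Chance flags about 1 in 20 such groups. The serine gene Sars was at 68.5 CPM in WT library 3, against 75.7 in the next lowest, in a library that also held the lowest value of 4 cytosolic genes. The asparagine gene Nars was at 90.3 CPM in KO library 3, against 98 in the next. The tyrosine gene Yars was at 46.5 CPM in KO library 7, against 42.1 in the next highest, the KO library with the most Atf4. The glutamate gene Ears2 was at 8.47 CPM in KO library 6, against 7.40. Nampt was among the groups looked at and was not among the 4, and neither was Lars2, whose high values came in 4 libraries at once.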

How the results depend on the processing

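No member but Lars2 passed in any of the 24 alternatives run, where the lowest adjusted p of the 35 was 0.182 (Farsb, DESeq2; 1 member had no adjusted p there) and their log2 fold changes ran from -0.13 to 0.18. The number of called genes was 6 in the reported fit, 2 with DESeq2's size factors in edgeR, 3 without the low-count filter, 96 with DESeq2, 2 with the covariate of RNA without a poly(A) tail, 2 without KO libraries 1, 3, 5 and 8, and 2 to 8 without single libraries. The covariate, leaving out those 4 KO libraries and all settings for lengths and Atf4 were chosen after seeing the data. Lars2 was at 1.65 with DESeq2 (adjusted p = 0.0485) and at 1.44 to 1.87 without single libraries. It was at -0.24 without those 4 KO libraries, which are the ones where it is highest. Per coding length the ratio of cytosolic to mitochondrial medians was 3.77 in place of 4.65. Of 20 cytosolic genes, 2 passed with Atf4, 0 without its 2 farthest libraries and 0 without the 4 KO libraries.

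Of 840 values for single members, 36 in 11 genes changed sign, all near 0. With the covariate these were Aars (-0.0056), Cars (-0.0045), Eprs (-0.0035), Gars (-0.0114) and Hars (-0.0142). Without the 4 KO libraries they were Dars (0.0073), Eprs (-0.003), Gars (-0.0187) and Hars (-0.0573), and with limma-voom Pars2 (0.0021). Without single libraries Cars ran from -0.0006 to 0.046, Gars from -0.0079 to 0.0326, Hars from -0.0054 to 0.0336, Kars from -0.01 to 0.0072, Cars2 from -0.0473 to 0.0059, Iars2 from -0.0124 to 0.0301, Nars2 from -0.0377 to 0.0677 and Pars2 from -0.0638 to 0.049. The cause of these changes was not tested.

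The libraries share replicate numbers across genotypes. Same-numbered libraries correlated between -0.10 and 0.24, with 3 of 8 pairs above 0.1 and 2 of 16 libraries closest to their own number, so the numbers were not taken to pair the samples. With the replicate block 2 genes passed, 0 of the 35 members among them, and Lars2 was at 1.18.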
